A study of Mus musculus with 8 samples.

Results

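The genes described here encode the proteasome, its interferon-induced subunits, its activators and its assembly chaperones, in follicular regulatory T (TFR) cells from mouse spleen. Members were taken by gene symbol, as every row of the count table named Psma to Psmg followed by a digit with at least 100 counts summed over the 8 libraries. By name, 50 of the 24421 genes matched, and 48 of these met the count minimum. Psmb11, the catalytic subunit of cortical thymic epithelium, had 6 counts in all, and Psma8, the testis form of an alpha subunit, had 59, and neither is a member. One member, Psmc3ip, matches only by name: it encodes a factor of meiotic recombination and no proteasome subunit. All 48 members passed the filter on low counts, so none is missing from the test.

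Libraries labelled Blimp1-flox with Foxp3-cre (n = 4) were set against libraries labelled WT (n = 4). Both groups had been challenged by mouth with peanut plus cholera toxin, 2 times, and spleens were taken after 36 days. CD4+ T cells were enriched with a kit, and TFR cells were then sorted as Foxp3-YFP+ CXCR5+ PD1+. Foxp3-cre acts in all cells that express Foxp3, so the deletion is not limited to TFR cells. Not given in the labels are the Foxp3-cre status of the WT mice, the number of floxed Blimp1 alleles, and whether each library is a mouse of its own. A p-value here rests on library-to-library spread alone, which may be technical in part.

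The proteasome degrades proteins tagged with ubiquitin. Its 20S core is a barrel of alpha and beta rings with the proteolytic sites inside, and the 19S cap recognises, deubiquitinates and unfolds substrates. Interferon induces 3 alternative catalytic subunits, Psmb8 (LMP7), Psmb9 (LMP2) and Psmb10 (MECL-1), which take the places of Psmb5, Psmb6 and Psmb7 in newly built immunoproteasomes, and the PA28 activator of Psme1 and Psme2. Lymphocytes hold much immunoproteasome without added interferon, and its peptides are loaded onto MHC class I. Blimp1, encoded by Prdm1, is a transcriptional repressor whose DNA sequence overlaps that bound by interferon regulatory factors such as IRF1, a known activator of immunoproteasome genes.

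Library totals ran from 16425538 to 27595939 counts. Levels are TMM-scaled CPM, the count of a gene relative to the scaled library total, and CPM per kilobase of exon where genes are compared with each other. Prdm1 had 13.4, 7.53, 9.60 and 16.6 CPM in the Blimp1-flox libraries, against 39.1, 31.8, 65.1 and 71.0 CPM in the WT libraries, so each library lay on the side of its label. Markers of the sort were present in every library: Cd4 at 1070 to 1352 CPM in Blimp1-flox and 1135 to 1278 CPM in WT, Foxp3 at 55.7 to 75.5 CPM in Blimp1-flox and 72.5 to 105 CPM in WT, and Cxcr5 at 475 to 568 CPM in Blimp1-flox and 391 to 506 CPM in WT. Pdcd1, which encodes PD1, was at 776 to 1477 CPM in Blimp1-flox and 774 to 1180 CPM in WT. Of 10 TFR marker genes 1 was called in edgeR, against 0.501% of all genes tested: Il2ra (named after its values were seen), with a log2 fold change of -1.39. At an unadjusted p under 0.05 in edgeR 2 of the 10 were lower, Il2ra and Foxp3 (log2 fold change -0.40), against 9.05% of all genes. Of the B cell and myeloid markers 0 were called. The summed level of 14 B cell marker genes was 209 to 278 CPM in Blimp1-flox libraries and 243 to 912 CPM in WT libraries, and the highest value was that of WT 4. The most abundant of the 14 genes, with a log2 fold change of 0.02, made up 167 to 240 CPM of that sum in Blimp1-flox and 167 to 231 CPM in WT. Ms4a1, a defining B cell gene, was at 0.639 to 1.75 CPM in Blimp1-flox and 4.76 to 65.0 CPM in WT, and 13 of the 14 B cell genes had a negative log2 fold change, with a median of -3.53. In 9 of the 14 all Blimp1-flox libraries lay below all WT libraries, against 4.72% of all genes tested, and 11 had an unadjusted p under 0.05. None of the 14 was at 0 in every library. The summed level of 10 tested myeloid and dendritic marker genes was 119, 53.3, 35.8 and 109 CPM in Blimp1-flox 1 to 4 and 39.4 to 60.7 CPM in WT, and 9 of the 10 had a positive log2 fold change. S100a8, a defining myeloid gene, was at 15.3, 2.95, 0 and 20.7 CPM in Blimp1-flox and at 0 to 2.77 CPM in WT. Fewer cells of a type and less RNA per cell cannot be told apart in such libraries.

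Promoter sequences of 40 of the 48 members were at hand from RefSeq (build GRCm38.p6), each running from 250 bases before to 50 bases after a gene start that lies within 100 bases of the start in the count table. Both strands were searched for a GAAA pair, 2 copies of GAAA with NN between (the site of interferon regulatory factors), GNGAAAG (a short Blimp1-type core, which can overlap the first motif) and TGACNNNGC (the antioxidant element read by Nrf1 and Nrf2). The GAAA pair was found in 1 of 5 interferon-induced promoters and 4 of 33 constitutive ones, and in 3.44% of all 32851 RefSeq promoters. GNGAAAG was found in 1 of 5 and 7 of 33, and in 22.6% of all promoters. TGACNNNGC was found in 0 of 5 and 6 of 33, and in 12.4% of all. A match describes these letters and shows no binding, and the window leaves out more distant sites.

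These 3 promoters are shown because each holds one of these motifs and belongs to a gene whose values follow. They are Psme1 at chr14:55578244-55578543 (+ strand), Psmb5 at chr14:54617946-54618245 (- strand) and Psmb3 at chr11:97703184-97703483 (+ strand). Each is written 5′ to 3′ along its gene, and capitals mark the matches.
Psme1: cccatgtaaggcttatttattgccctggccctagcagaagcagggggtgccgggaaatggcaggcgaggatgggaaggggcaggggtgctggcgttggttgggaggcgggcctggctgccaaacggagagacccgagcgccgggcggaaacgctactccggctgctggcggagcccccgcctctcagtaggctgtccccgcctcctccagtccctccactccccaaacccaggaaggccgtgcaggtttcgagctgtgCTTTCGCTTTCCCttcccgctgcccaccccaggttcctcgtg
Psmb5: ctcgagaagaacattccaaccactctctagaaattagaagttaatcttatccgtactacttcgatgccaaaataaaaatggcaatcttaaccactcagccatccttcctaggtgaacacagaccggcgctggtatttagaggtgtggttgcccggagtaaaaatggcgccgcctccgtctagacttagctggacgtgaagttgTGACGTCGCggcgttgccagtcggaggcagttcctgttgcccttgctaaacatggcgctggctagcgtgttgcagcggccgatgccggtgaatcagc
Psmb3: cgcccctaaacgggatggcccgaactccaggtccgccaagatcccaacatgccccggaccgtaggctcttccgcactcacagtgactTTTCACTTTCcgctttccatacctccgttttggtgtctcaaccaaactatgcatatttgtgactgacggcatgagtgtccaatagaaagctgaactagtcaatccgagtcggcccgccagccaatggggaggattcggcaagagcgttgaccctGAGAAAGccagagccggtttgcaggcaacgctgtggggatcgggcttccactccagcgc
In Psme1 the capitals hold TTTCGCTTTC, a match of the GAAA pair on the opposite strand that begins 9 bases after the start, with both of its GNGAAAG matches in the same run. In Psmb5 they mark TGACGTCGC, a match of TGACNNNGC 47 bases before the start. In Psmb3, a non-catalytic beta subunit of the 20S core, they mark TTTCACTTTC, a match of the GAAA pair 163 bases before the start, and a GNGAAAG match 9 bases before it.

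Psmb8, Psme1 and Psme2 had the highest levels per kilobase of all members, and none of the 5 interferon-induced members passed the test in either direction. Psmb8, which carries the chymotrypsin-like site of the immunoproteasome, averaged 523 ± 81.5 CPM per kilobase in Blimp1-flox and 455 ± 34.9 CPM per kilobase in WT (SD, n = 4 each). It had the highest mean level per kilobase of the 48 members. Psme1 and Psme2 averaged 476 ± 52.3 and 374 ± 39.4 CPM per kilobase in Blimp1-flox, and 455 ± 17.0 and 366 ± 32.1 CPM per kilobase in WT (SD, n = 4 each). The 41 constitutive members had mean levels over all libraries of 8.83 to 327 CPM per kilobase, with a median of 99.5.

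Psmb8 had 772, 531, 620 and 638 CPM in the Blimp1-flox libraries, against 564, 500, 559 and 604 CPM in the WT libraries. Blimp1-flox 1 was the highest of the 8 libraries and the groups overlapped. Psmb8 lies in the MHC region on chromosome 17 from 34198195 to 34201454 in mm10, and its log2 fold change was 0.20 ± 0.11 (SE; adjusted p = 0.403 in edgeR), with a 95% interval from -0.04 to 0.45. Psmb9, which supplies the inducible counterpart of the caspase-like site, had 280, 196, 210 and 232 CPM in Blimp1-flox and 203, 200, 212 and 255 CPM in WT. It was highest in Blimp1-flox 1 and, among WT libraries, in WT 4, where the B cell markers were also highest, and the part of B cell RNA was not tested. Psmb9 lies on chromosome 17 from 34182099 to 34187330, and its log2 fold change was 0.08 ± 0.12 (SE; adjusted p = 0.792 in edgeR), with a 95% interval from -0.19 to 0.34.

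Psmb10, the inducible trypsin-like subunit on chromosome 8 from 105935728 to 105938392, had 193, 137, 131 and 156 CPM in Blimp1-flox and 165, 132, 167 and 158 CPM in WT. Blimp1-flox 1 lay above every WT library, and the other Blimp1-flox libraries lay at or near the WT range. Its log2 fold change was -0.01 ± 0.13 (SE; adjusted p = 0.970 in edgeR), with a 95% interval from -0.29 to 0.26. Psme1 and Psme2 encode the alpha and beta subunits of the ring-shaped PA28 activator and lie near each other on chromosome 14, at 55578494 to 55581527 and 55587440 to 55591101. Psme1 had 519, 396, 479 and 468 CPM in Blimp1-flox and 448, 421, 449 and 460 CPM in WT. Psme2 had 409, 321, 350 and 383 CPM in Blimp1-flox and 369, 318, 351 and 392 CPM in WT. Blimp1-flox 1 was highest for both genes, Blimp1-flox 2 was lowest for Psme1 and WT 2 for Psme2. The log2 fold changes were 0.07 ± 0.09 and 0.03 ± 0.10 (SE; adjusted p = 0.764 and 0.908 in edgeR), with 95% intervals from -0.14 to 0.27 and from -0.19 to 0.25.

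**Figure D1:**
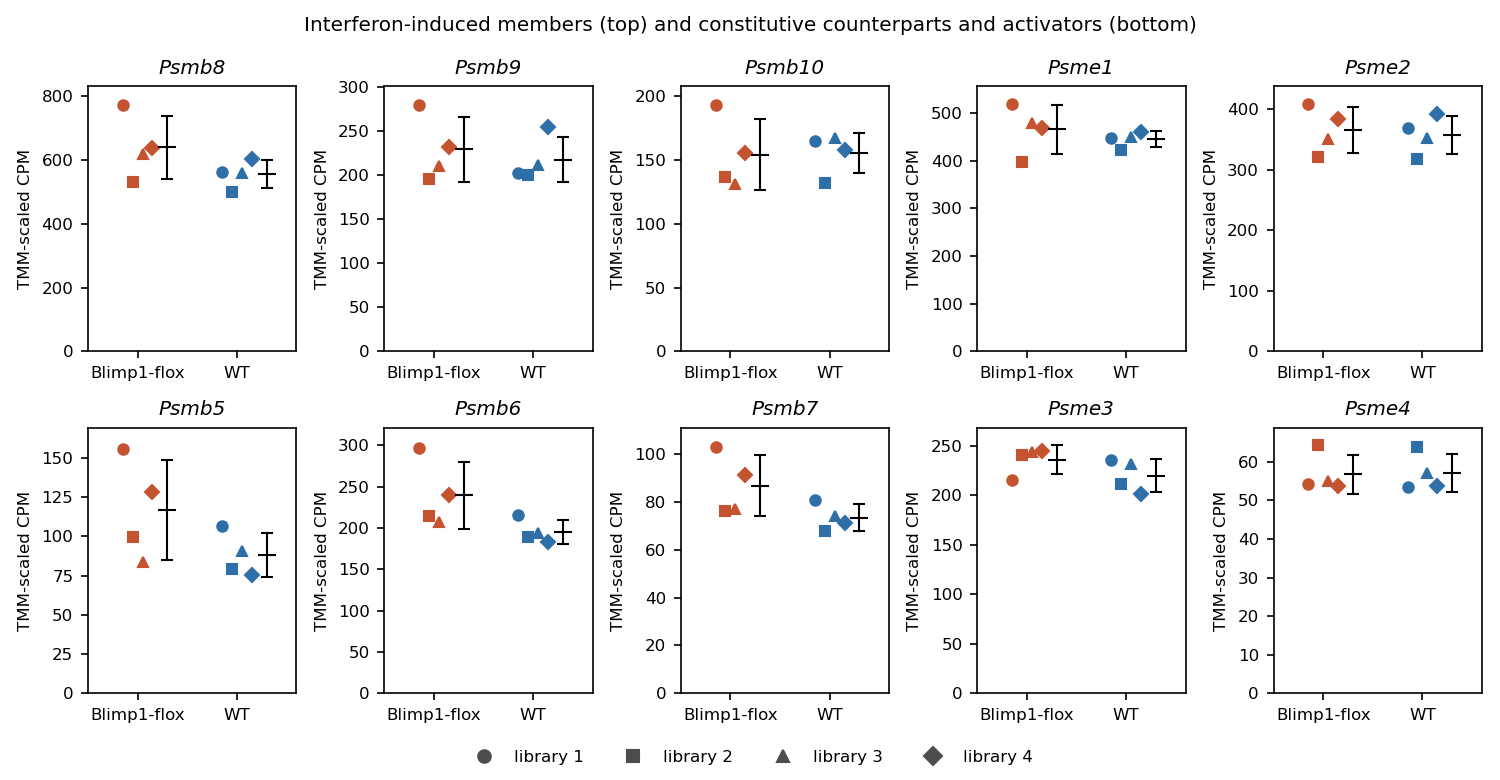
TMM-scaled CPM (vertical axis, from 0) of the 5 interferon-induced members (top row) and of 3 constitutive catalytic subunits and 2 other activators (bottom row), with Blimp1-flox libraries in orange and WT libraries in blue. Marker shapes give the library number, and bars give the mean and SD of 4 libraries; the groups overlap in all 10 panels, and Blimp1-flox 1 (circle) is the highest library for 8 of the 10 genes, all but Psme3 and Psme4.

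Across the 5 interferon-induced members the median log2 fold change was 0.07, 4 were positive, and the range was -0.01 to 0.20. This median was -0.03 without Blimp1-flox 1 and 0.13 without Blimp1-flox 2. Over the 41 constitutive members the median was 0.19, 40 were positive, and the range was -0.01 to 0.41. Over all 48 members the median was 0.18, a fold of 1.14, and 45 were positive, and the median was 0.12 without Blimp1-flox 1. Over all 12363 genes tested the median was 0.0012 and 50.1% were positive. No test of the difference between the induced and the constitutive members was made.

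None of the 48 members was called in edgeR at an adjusted p under 0.05, against 0.501% of all genes tested in either direction (0.259% higher and 0.243% lower in Blimp1-flox). DESeq2 also called 0 members, against 3.66% of all genes (1.56% higher in Blimp1-flox and 2.1% lower), and limma-voom with quality weights called 0, against 4.09% (1.76% higher and 2.33% lower). At an unadjusted p under 0.05 in edgeR 12 members were higher in Blimp1-flox, against 7.11% of all genes, and 1 was lower, against 9.05%, with 16.2% of all genes in either direction. At the same unadjusted threshold DESeq2 gave 13 higher members and 1 lower, and limma-voom 19 and 1. The shares of all genes at this threshold are given for edgeR alone, so these counts cannot be read against a background. The 12 higher ones in edgeR were all constitutive, and the lower one was Psme2b. Leaving out Blimp1-flox libraries 1 to 4 in turn gave 5, 21, 12 and 6 higher members in edgeR. For WT libraries 1 to 4 the counts were 17, 4, 7 and 6. A replicate block gave 18 higher and 0 lower members. No share of all genes is given for these fits, so their counts cannot be read against a background either.

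**Figure D2:**
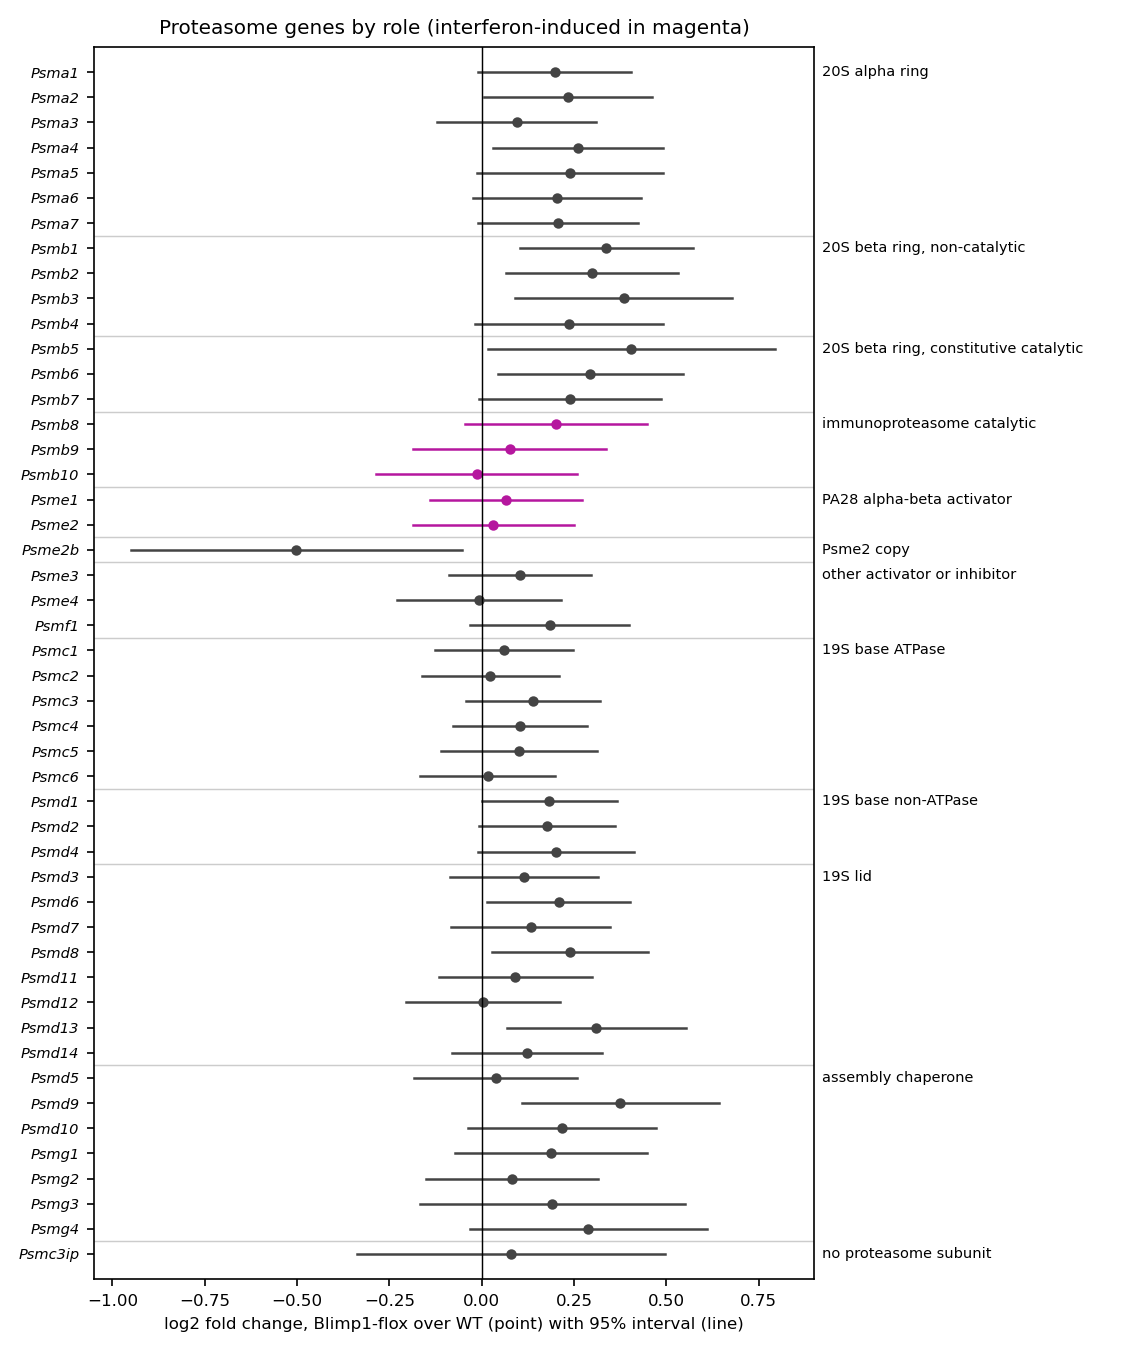
Log2 fold change of each of the 48 members, Blimp1-flox over WT (point), with its 95% interval from edgeR (line), grouped by role down the page. Of the 48 points 45 lie right of 0, the interferon-induced members in magenta lie between -0.01 and 0.20, and Psme2b lies at -0.50.

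The constitutive counterparts of the catalytic subunits had larger positive log2 fold changes than the inducible forms, a difference that was not tested, and none passed. Psmb5, the constitutive chymotrypsin-like subunit, had 155, 99.8, 83.4 and 128 CPM in Blimp1-flox libraries, against 107, 79.2, 90.4 and 75.7 CPM in WT libraries. Blimp1-flox 1 and 4 were above all WT libraries while Blimp1-flox 2 and 3 lay among them. Its log2 fold change, 0.41 ± 0.18 (SE; adjusted p = 0.290 in edgeR), was the highest of all members, and 109 bases of its exons are shared with the microRNA gene Mir686. Psmb6, the caspase-like subunit, had 297, 214, 207 and 240 CPM in Blimp1-flox and 216, 189, 194 and 183 CPM in WT. Only WT 1 lay within the Blimp1-flox range. The log2 fold change of Psmb6 was 0.29 ± 0.12 (SE; adjusted p = 0.249 in edgeR). Psmb7, the trypsin-like subunit, had 103, 76.0, 76.9 and 91.2 CPM in Blimp1-flox and 80.8, 67.6, 74.0 and 71.0 CPM in WT. WT 1 again lay within the Blimp1-flox range, and the log2 fold change was 0.24 ± 0.11 (SE; adjusted p = 0.320 in edgeR).

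A ratio of a pair within a library does not depend on how libraries are scaled. The inducible form made up 78.0% to 85.0% of the Psmb8 and Psmb5 transcripts per kilobase of exon over the 8 libraries, 54.0% to 64.2% of the Psmb9 and Psmb6 transcripts, and 56.5% to 63.2% of the Psmb10 and Psmb7 transcripts. Psmb5 and Psmb6 have copies elsewhere with 98.9% identity over 796 bases and 92.1% over 718 bases. Their counts, and the shares and ratios that use them, are therefore uncertain. Psmb10 over Psmb7 was 1.43, 1.37, 1.30 and 1.30 in Blimp1-flox libraries, against 1.56, 1.49, 1.72 and 1.70 in WT libraries. Every Blimp1-flox library lay below every WT library. Psmb9 over Psmb6 was 1.21, 1.17, 1.30 and 1.24 in Blimp1-flox and 1.21, 1.36, 1.41 and 1.80 in WT, where only WT 1 lay within the Blimp1-flox range. Psmb8 over Psmb5 was 3.54, 3.79, 5.29 and 3.55 in Blimp1-flox and 3.76, 4.50, 4.40 and 5.68 in WT, and those groups overlapped because of Blimp1-flox 3 and WT 1.

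No test was made on the ratios. The mean log2 differences of the 3 ratios, Blimp1-flox minus WT, were -0.26 for Psmb10 over Psmb7, -0.21 for Psmb9 over Psmb6 and -0.19 for Psmb8 over Psmb5. Without WT 4 they were -0.23, -0.10 and -0.08, and without Blimp1-flox 3 that of Psmb8 over Psmb5 was -0.32. Of all 205 ratios of an interferon-induced to a constitutive member 28 had no overlap between the groups, and in all 28 the Blimp1-flox libraries were lower. They comprised 13 with Psme2, 11 with Psmb10 and 4 with Psme1 in the numerator, and 0 with Psmb8 or Psmb9. Ratios that share a gene are not independent. Of all 1128 ratios of a pair of members, which include these 205, 6.47% had no overlap, against 13.7% of the 205. No share was computed for ratios of other genes over the constitutive members. As 40 of the 41 constitutive members had a positive log2 fold change, the 28 cannot be read as particular to the interferon-induced members.

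**Figure D3:**
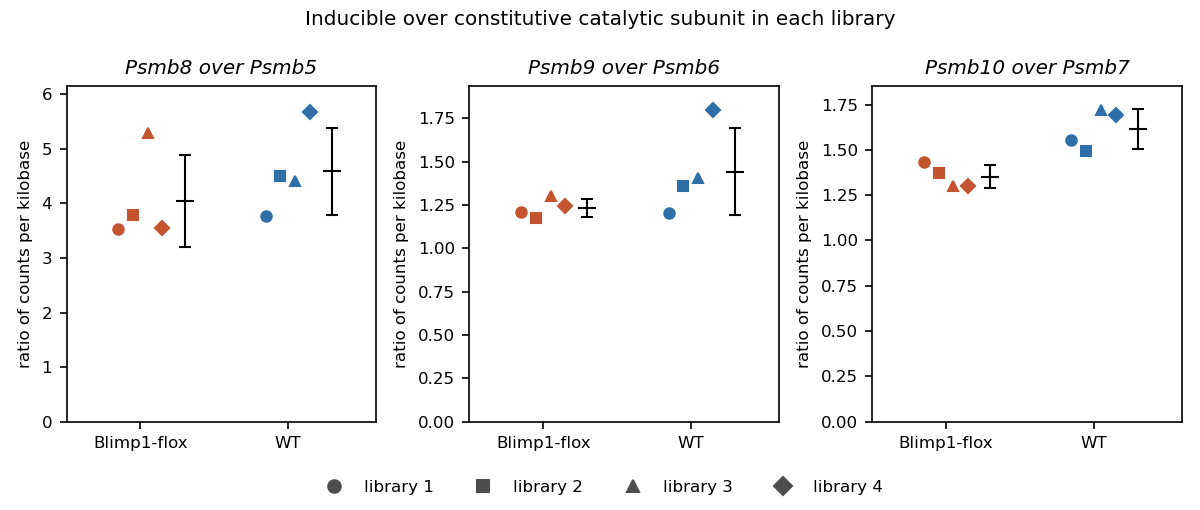
Ratio of counts per kilobase of exon of the inducible over the constitutive catalytic subunit (vertical axis, from 0) in each library, with Blimp1-flox in orange, WT in blue, and bars for the mean and SD of 4 libraries. Psmb10 over Psmb7 runs from 1.30 to 1.43 in Blimp1-flox and from 1.49 to 1.72 in WT with no overlap, while the groups overlap in the other panels.

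The rest of the 20S core had positive log2 fold changes, and no member of it passed. All 7 alpha subunits, which form the outer rings and gate the barrel, were positive, with a median log2 fold change of 0.21 and a range of 0.09 to 0.26. The 4 non-catalytic beta subunits had a median of 0.32 and a range of 0.24 to 0.38, the highest median of any role with more than 1 member. Psmb3 had 253, 166, 168 and 216 CPM in Blimp1-flox libraries, against 172, 137, 158 and 148 CPM in WT libraries. Blimp1-flox 1 and 4 stood above all WT libraries. The log2 fold change of Psmb3 was 0.38 ± 0.14 (SE; adjusted p = 0.207 in edgeR). Psmb1, chosen after its values were seen as the member with the lowest adjusted p, had a log2 fold change of 0.34 ± 0.11 (SE; adjusted p = 0.180 in edgeR).

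In the 19S cap the median log2 fold changes were smaller than in the 20S alpha ring and constitutive beta subunits, a difference that was not tested. The 6 base ATPases Psmc1 to Psmc6, which unfold substrates and feed them into the core, had log2 fold changes of 0.02 to 0.14 with a median of 0.08. The 3 other base subunits, the scaffolds Psmd1 and Psmd2 and the ubiquitin receptor Psmd4, had 0.18 to 0.20. The 8 lid subunits, among them the deubiquitinase Psmd14 and its partner Psmd7, had a median of 0.13 and a range of 0.003 to 0.31. At the low end was Psmd12 and at the high end Psmd13. In 3 of 48 members the groups did not overlap, with Blimp1-flox higher in each, against 3.75% of all genes tested. These were Psmd2, the lid subunit Psmd6 and the 20S chaperone Psmg4, named after their values were seen. Psmd2 had 440, 468, 454 and 474 CPM in Blimp1-flox and 426, 405, 429 and 365 CPM in WT, and its log2 fold change was 0.18 ± 0.08 (SE; adjusted p = 0.327 in edgeR). No member had all Blimp1-flox libraries below all WT libraries, against 4.72% of all genes tested.

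Assembly chaperones, which build the 20S core (Psmg1 to Psmg4) or the 19S base (Psmd5, Psmd9 and Psmd10), had low levels of 18.0 to 53.1 CPM per kilobase. Their log2 fold changes ran from 0.04 to 0.38 with a median of 0.19. Psmd9 had 57.5, 45.7, 59.8 and 47.9 CPM in Blimp1-flox libraries, against 47.0, 41.8, 37.4 and 36.4 CPM in WT libraries. Only WT 1 lay within the Blimp1-flox range. Its log2 fold change was 0.38 ± 0.12 (SE; adjusted p = 0.184 in edgeR), and it was among the 3 highest members.

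The other activators and the inhibitor did not pass either. Psme3, the nuclear PA28 gamma, had 215, 241, 243 and 245 CPM in Blimp1-flox and 236, 211, 231 and 201 CPM in WT. Psme4, the large activator PA200, had 54.3, 64.2, 54.9 and 53.6 CPM in Blimp1-flox and 53.4, 63.9, 57.1 and 53.8 CPM in WT. For Psme4 Blimp1-flox 2 and WT 2 were the highest libraries, and for both genes the groups overlapped. Log2 fold changes were 0.10 ± 0.09 for Psme3 and -0.01 ± 0.10 for Psme4 (SE; adjusted p = 0.592 and 0.977 in edgeR). Psmf1, the 20S-binding protein PI31, had a log2 fold change of 0.18, and Psmc3ip one of 0.08.

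Psme2b had the lowest fold change of all members. It is a single-exon copy of Psme2 on chromosome 11 from 48945352 to 48946410, and the GENCODE transcripts of both genes are 99.4% identical over 794 bases, so the counting may have split or dropped their reads. Psme2b had 14.7, 15.8, 14.8 and 12.9 CPM in Blimp1-flox libraries, against 13.9, 20.7, 17.4 and 30.2 CPM in WT libraries. WT 4 was highest and WT 1 lay within the Blimp1-flox range. The log2 fold change was -0.50 ± 0.21 (SE; adjusted p = 0.265 in edgeR), and -0.25 without WT 4. The gene shares 261 exon bases on the same strand with 9930111J21Rik1. That neighbour, chosen after its values were seen, had 21.6, 33.8, 28.3 and 26.8 CPM in Blimp1-flox and 25.8, 58.2, 38.4 and 72.9 CPM in WT. WT 4 and WT 2 were the highest libraries for both genes, and the part of shared reads and of B cell RNA was not tested.

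In all, 15 of the 48 members had a transcript elsewhere in GENCODE with at least 90% identity over at least 200 bases, mostly processed pseudogenes, and for 10 of them the identity reached 95%. These include Psmb3, Psmb5, Psma3, Psma5 and Psmd2. Counts of such genes are uncertain where reads match more than 1 place. Exons of Psma4, Psmb5, Psmc3ip, Psme1 and Psme2b overlap another gene in the table, by 4 bases for Psme1 and by up to 261 for Psme2b.

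The members shared a pattern across libraries. Blimp1-flox 1 was the highest library for 31 of 48 members, as it was for 19.6% of all genes tested, and WT 2 was the lowest for 27 of 48, as it was for 15.1% of all genes. The median deviation of the members from their 8-library means was 0.24, -0.07, 0.08 and 0.10 (log2) in Blimp1-flox 1 to 4, and 0.02, -0.19, -0.06 and -0.11 in WT 1 to 4. Blimp1-flox 2 therefore lay among the WT libraries. All members together took 0.980%, 0.794%, 0.874% and 0.893% of the counts in Blimp1-flox libraries and 0.820%, 0.735%, 0.802% and 0.804% in WT libraries. The myeloid marker sum was also highest in Blimp1-flox 1 and 4, and its part in these values was not tested.

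**Figure D4:**
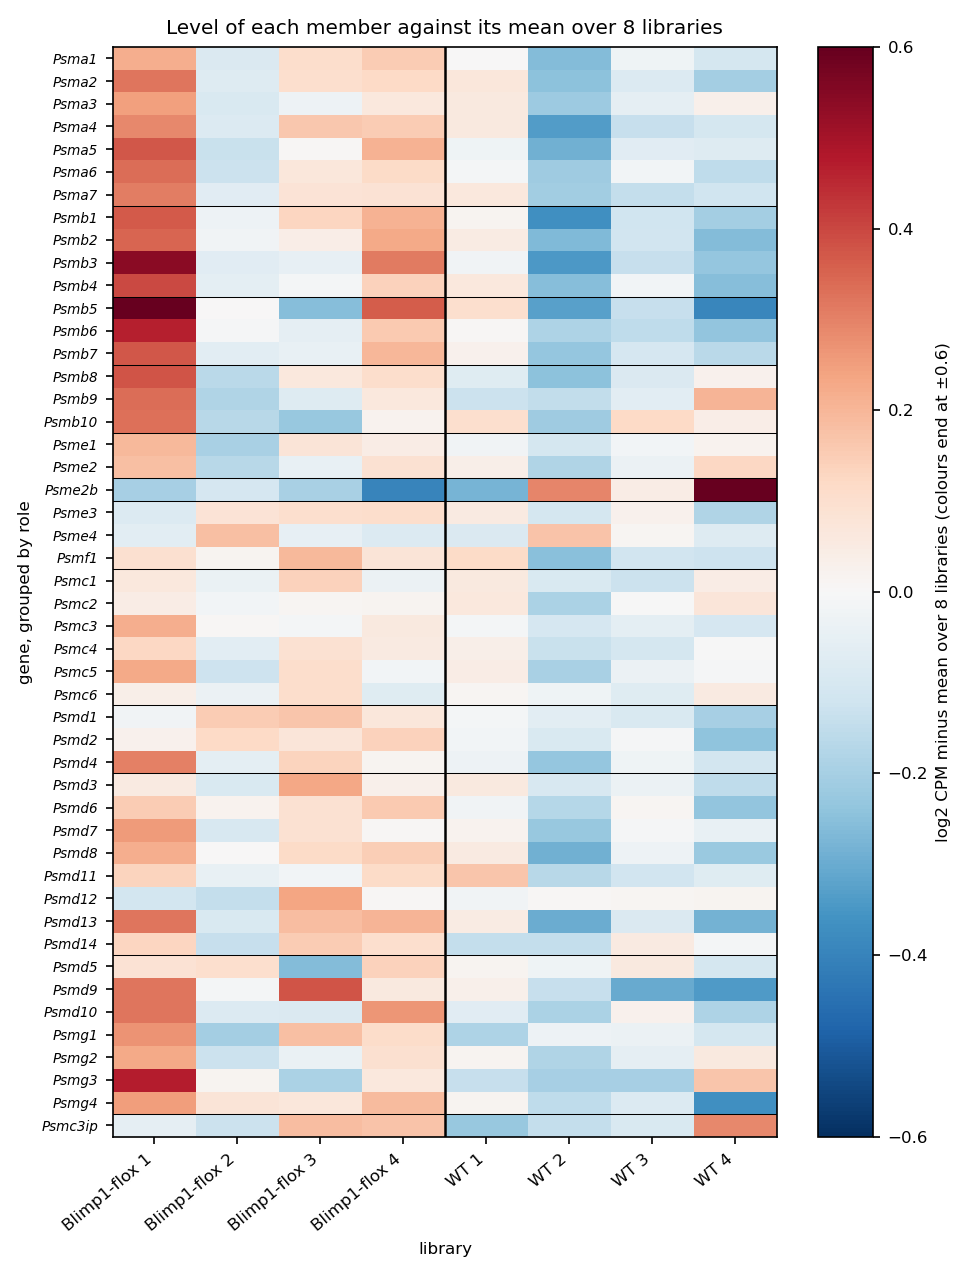
Log2 CPM of each of the 48 members (rows, grouped by role) minus its mean over the 8 libraries (columns, Blimp1-flox left of the line, WT right of it); red is above and blue below the mean, and colours end at 0.6. Blimp1-flox 1 is highest for 31 members and WT 2 lowest for 27, and Psme2b stands out by its high value in WT 4.

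Short genes of all kinds had the same 2 libraries at the ends of their range. Members have a median exon length of 1286.5 bases, against 2826 for all genes tested. Among the 980 tested genes of up to 1000 bases the median deviation was 0.24 in Blimp1-flox 1 and -0.20 in WT 2 (log2), and among the 3586 genes over 4000 bases it was -0.14 in Blimp1-flox 1 and 0.14 in WT 2. The median log2 fold change of all genes was 0.11 for those of up to 1000 bases, 0.07 for those over 1000 and up to 2000 bases, 0.01 for those over 2000 and up to 4000 bases, and -0.08 above. For the members it was 0.22 (14 genes), 0.14 (26 genes) and 0.18 (7 genes) in the first 3 of these ranges. In the same 3 ranges 69.1%, 62% and 50.8% of all genes were positive, and 100%, 92.3% and 100% of the members. With the length trend of each library removed, a fit chosen after seeing the data, the median of all members was 0.10, with 38 positive, and that of the induced members -0.03. Leaving out both Blimp1-flox 1 and WT 2, also chosen after seeing the data, gave a median of 0.09 with 39 positive. The part of gene length in the members' fold changes was not tested beyond these fits.

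**Figure D5:**
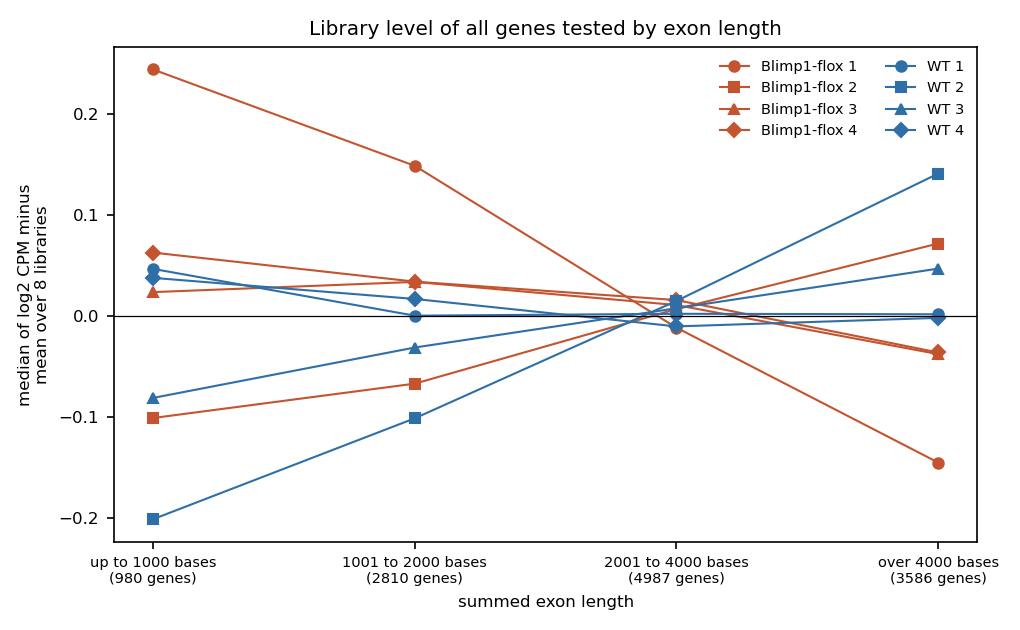
Median of log2 CPM minus the mean over 8 libraries (vertical axis) of all genes tested, in 4 ranges of summed exon length (horizontal axis, with the number of genes), 1 line per library, Blimp1-flox in orange and WT in blue. Blimp1-flox 1 runs from 0.24 in the shortest genes to -0.14 in the longest, and WT 2 runs the opposite way.

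Among 15 interferon signalling genes 1 was called in edgeR, against 0.501% of all genes tested: Irf1 fell, and none rose. Irf1 had 414, 434, 509 and 408 CPM in Blimp1-flox libraries, against 622, 625, 614 and 627 CPM in WT libraries. All Blimp1-flox libraries lay below all WT libraries, with a log2 fold change of -0.50 ± 0.09 (SE; adjusted p = 0.0339 in edgeR). Leaving out any one of Blimp1-flox 1, 2 and 4 or of WT 2 and 3 ended this call, with adjusted p in edgeR between 0.0731 and 0.170 and log2 fold changes between -0.50 and -0.46. The call also ended with a replicate block (adjusted p = 0.0657 in edgeR, log2 fold change -0.50) and without both Blimp1-flox 1 and WT 2 (adjusted p = 0.286 in edgeR, log2 fold change -0.46). Irf1 stayed called in 12 of 19 alternative fits, among them DESeq2 (adjusted p = 4.1e-05) and limma-voom with quality weights (adjusted p = 0.0027). In edgeR it was also called without Blimp1-flox 3, WT 1 or WT 4 (adjusted p = 0.0136, 0.0429 and 0.0446). Of the 15 genes 14 had a negative log2 fold change, with a median of -0.16, while 50.1% of all genes tested were positive. Several of the 15, such as Jak1, Jak2 and Tyk2, are over 4000 bases long, where 34.7% of all genes were positive. Those 3 were highest in WT 2. Shorter ones, such as Ifngr1, Irf1 and Irf2, were also negative, and the 1 positive gene, Socs1, is under 4000 bases too. Irf7, Irf8, Irf9 and Stat2 were highest in WT 4, where the B cell markers were also highest. Irf1, with 3360 bases of exon, had a log2 fold change of -0.48 with the length trend of each library removed and -0.49 without WT 4. Beyond these fits the part of gene length and of B cell RNA was not tested.

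Genes that use the peptides made by the proteasome did not pass either. Of 13 tested antigen processing genes 0 were called in edgeR in either direction, against 0.501% of all genes tested. At an unadjusted p under 0.05 there were 0, against 16.2% of all genes. Log2 fold changes were positive for 4 and negative for 9, with a range of -0.13 to 0.15, while 50.1% of all genes were positive. Tap1 and Tap2, the peptide transporter into the endoplasmic reticulum encoded beside Psmb8 and Psmb9, had log2 fold changes of 0.05 ± 0.09 and -0.06 ± 0.09 (SE; adjusted p = 0.838 and 0.761 in edgeR). Tap1 had 507, 445, 539 and 502 CPM in Blimp1-flox and 454, 472, 489 and 516 CPM in WT, with full overlap. Tap2 had 655, 570, 583 and 558 CPM in Blimp1-flox and 672, 565, 624 and 612 CPM in WT. Those groups overlapped as well. B2m, the light chain of MHC class I, had 3671, 3005, 2781 and 3313 CPM in Blimp1-flox and 3836, 2972, 3460 and 3648 CPM in WT. Nlrc5, a transactivator of MHC class I genes, had 224, 296, 241 and 228 CPM in Blimp1-flox and 246, 302, 259 and 279 CPM in WT. Neither separated the groups, and their log2 fold changes were -0.12 ± 0.11 and -0.13 ± 0.11 (SE; adjusted p = 0.610 and 0.559 in edgeR).

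Of 27 tested genes of proteasome regulation and substrate delivery outside the name rule 0 were called in edgeR, against 0.501% of all genes tested. At an unadjusted p under 0.05 there were 3 higher and 2 lower, against 7.11% and 9.05% of all genes. The median log2 fold change was 0.03 with 15 positive, while 50.1% of all genes were positive. Pomp, the maturation chaperone of the 20S core, had 155, 132, 151 and 145 CPM in Blimp1-flox and 147, 119, 128 and 145 CPM in WT. Nfe2l1, which encodes Nrf1, the factor that raises proteasome genes when proteolysis falls short, had 118, 133, 93.4 and 113 CPM in Blimp1-flox and 122, 114, 128 and 124 CPM in WT. The groups overlapped for both genes. Their log2 fold changes were 0.11 ± 0.10 and -0.09 ± 0.11 (SE; adjusted p = 0.594 and 0.718 in edgeR).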

How the data were processed

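RNA was prepared with the RNeasy Plus Micro kit and libraries with a KAPA mRNA kit (Hyperprep), per the labels. For alignment the submitters' processing notes name STAR 2.5.2b and mm10, and for counting featureCounts from Subread 1.5.1. For annotation, strand setting and multiply mapped reads the choice is not given in the sources used here. The table the authors deposited holds unnormalized counts per gene. It also gives a deposited summed exon length per gene, another kind of value, used for levels per kilobase.

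Genes were kept with filterByExpr (12363 of 24421), libraries were scaled by TMM (factors 0.976 to 1.02), and Blimp1-flox was tested against WT in edgeR 4.0.16 (R 4.3.3) by glmQLFTest with robust fitting and genotype as its sole term. Benjamini-Hochberg adjustment ran over all genes tested, and an adjusted p under 0.05 was called. SE and 95% intervals of log2 fold changes came from the F statistic. The test was tested on simulated data. Alternatives used limma 3.58.1 (voom), DESeq2 1.42.0, other scalings, filters, a replicate block and left-out libraries. Transcripts were compared with blastn 2.17.0 on GENCODE.

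Members and lists were chosen with earlier results of these data known. Named with values in every library were the 5 interferon-induced members, Psmb5, Psmb6, Psmb7, Psme3, Psme4, any called member, the 3 highest and 3 lowest fold changes, and Prdm1, Tap1, Tap2, B2m, Nlrc5, Irf1, Pomp and Nfe2l1; 1 further gene of this rule is not reported here. Counts over the lists of TFR, B cell, myeloid and CD8 T markers served as checks; of CD8 T markers Cd8b1 was tested, at 10.4 to 17.9 CPM in Blimp1-flox and 12.3 to 16.8 CPM in WT. No 2 libraries of a group agreed within sampling noise.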

Additional observations from a re-analysis of the deposited data

Results flagged for a closer look

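In 50 groups of 4 libraries (25 measures in each genotype) 3 had 1 library farther from the rest than Dixon's criterion allows at the 95% level, and chance gives about 1 in 20. Psme3 was at 215 CPM in Blimp1-flox 1, against 241 to 245 CPM in the other Blimp1-flox libraries. Psme4 was at 64.2 CPM in Blimp1-flox 2, against 53.6 to 54.9 CPM in the others. Psmb8 over Psmb5 was 5.29 in Blimp1-flox 3, against 3.54 to 3.79 in the others.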

How the results depend on the processing

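No member was called at an adjusted p under 0.05 in either direction under any of the scalings, tools, filters or left-out libraries. The threshold of 0.1 was applied to the main edgeR fit alone, where it also called no member. The lowest adjusted p of a member was 0.0737 in DESeq2 and 0.0586 in limma-voom, both under 0.1. The count of all genes called, 62, was 453 in DESeq2, 506 in limma-voom, 157 without WT 4 and Blimp1-flox 3, 7 without Blimp1-flox 1 and WT 2, 182 at the threshold of 0.1, and 20 to 127 with 1 library left out. Fold changes near 0 changed sign, none of them called. Psmb9 was -0.034 with the length trend removed, -0.071 without Blimp1-flox 1 and WT 2, and -0.035 to 0.16 with 1 library left out. With the length trend removed Psme1 was -0.028, Psme2 -0.059 and Psme4 0.10, and without Blimp1-flox 1 and WT 2 they were -0.014, -0.078 and 0.073. Psme4 was 6.4e-04 with upper-quartile scaling. With 1 library left out Psmb10 ran from -0.14 to 0.057, Psme2 from -0.027 to 0.086 and Psme4 from -0.075 to 0.052. Without WT 4 and Blimp1-flox 3 Psmb10 was 0.062 and Nfe2l1 0.0031. The cause was not tested. Correlations between same-numbered libraries were 0.1, 0.153, -0.102 and -0.108, and these are not correlations of the expression levels themselves. The best-matching WT library had the same number for Blimp1-flox 1 and 2, but was WT 4 for Blimp1-flox 3 and WT 1 for Blimp1-flox 4. These values do not settle whether replicate numbers pair the libraries. With the replicate block 52 genes were called, among them 0 members, and the members' median was 0.18; the adjusted p of Irf1 was 0.0657. The 95% intervals of the members reached 0.18 to 0.45 (log2) to either side of the estimate, which limits what could be detected.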
